A study of Mus musculus with 48 samples.

Results

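The 9 genes described here are *Nfe2l2*, which encodes the transcription factor NRF2, 6 antioxidant genes that NRF2 is known to control (*Gclc*, *Gclm*, *Nqo1*, *Srxn1*, *Txnrd1* and *Hmox1*), and the metallothionein genes *Mt1* and *Mt2*. They were chosen by name: every probe of the array design that is not a control and carries 1 of these gene names was taken, which gave 13 of 56605 probes and 9 of 37074 gene names. Of the 13 probes, 12 were kept by a filter on dim probes that left 30793 probes and 20486 genes. The probe dropped was the second probe of *Hmox1*, which was well above background on 0 of 48 arrays. The brightest probe of each of the 9 genes was well above background on all 48 arrays, so none of them was kept on account of a single group.

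The RNA came from livers of male mice and was hybridized on one-colour Agilent arrays, with 1 array per mouse and 6 mice in each of 8 groups. In *p110α* hep-/- mice (LKO), Cre recombinase driven by the *albumin* promoter deletes *p110α* (*Pik3ca*, a catalytic subunit of phosphoinositide 3-kinase that relays insulin signals) in hepatocytes. The *p110α* hep+/+ mice (LWT) are littermates that carry the same floxed alleles without Cre, so the genotypes differ in Cre as well. From 12 weeks of age, mice of both genotypes received a high-fat diet (HFD) with 60% of its calories from fat, or a control diet (CTRL), for 12 weeks. Mice of each genotype and diet were then either fed ad libitum or fasted for 24 h before they were killed at Zeitgeber time 16, in the dark phase. The 8 groups are thus fed and fasted LWT mice on CTRL diet, fed and fasted LWT mice on HFD, and the same 4 combinations in LKO mice. The question asked of these genes is how their mRNA differed with fasting, with the diet and with the loss of hepatocyte p110α.

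In unstressed cells NRF2 is bound by KEAP1, a cysteine-rich adaptor that hands it to a ubiquitin ligase for destruction. Oxidants and electrophiles modify KEAP1, NRF2 then accumulates, pairs with small MAF proteins and binds antioxidant response elements near genes for glutathione synthesis, quinone reduction, the thioredoxin system and heme breakdown. NRF2 is therefore controlled largely as a protein, and its mRNA level is a different quantity from its activity. Metallothioneins are small cysteine-rich proteins that bind zinc and copper. In liver their genes are known to respond to metals through the factor MTF1 and metal response elements, and also to glucocorticoids, inflammatory cytokines, fasting and oxidants.

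Levels are given as normalized log2 signals, on which a difference of 1 is a 2-fold difference, and a level of one probe is not compared with that of another. Differences are log2 fold changes from a limma fit over all 48 arrays with array weights, so they can depart slightly from the difference of the plain means. Calls required a Benjamini-Hochberg adjusted p no higher than 0.05, taken over all probes kept, together with a change of more than 1.5-fold in the brightest probe of the gene. Liver tissue is a mixture of cells, and a lower signal from fewer cells of a type cannot be told apart from less RNA per cell. Between 50.1% and 57.4% of probes were well above background on an array, and no spot was saturated. By root-mean-square distance over the probes kept that had no missing value, 2 arrays lay nearer the mean of another group than their own. They were replicate 2 of fed LWT mice on CTRL diet and replicate 3 of fed LKO mice on HFD. Each call of the brightest probe of the 9 genes that uses either array is also given without both. The *Pik3ca* probe was not lower in LKO mice in any of the 4 comparisons (log2 fold changes 0.08 to 0.58) and was higher by adjusted p in 3 of them (adjusted p = 0.000419 and 2.99e-07 in fed mice on CTRL diet and HFD, 0.0172 in fasted mice on HFD). Where it lies relative to the deleted part of the gene was not determined, so the deletion was not checked on these arrays.

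For orientation before the values, start windows of 4 of the genes are shown because *Mt1* and *Mt2* carry the change with fasting and *Nqo1* and *Srxn1* the change with genotype. RefSeq windows of build GRCm38.p6, which run from 250 bases before an annotated start to 50 bases after it, were found for 7 of the 9 genes, with none for *Gclc* and *Hmox1* in the table used. Capitals mark matches to the core of the antioxidant response element, TGACNNNGC, or to the core of the metal response element, TGCACNC or TGCGCNC, searched on both strands. The 250 bases before the start are printed 5′ to 3′ on the strand of the gene.
Mt1: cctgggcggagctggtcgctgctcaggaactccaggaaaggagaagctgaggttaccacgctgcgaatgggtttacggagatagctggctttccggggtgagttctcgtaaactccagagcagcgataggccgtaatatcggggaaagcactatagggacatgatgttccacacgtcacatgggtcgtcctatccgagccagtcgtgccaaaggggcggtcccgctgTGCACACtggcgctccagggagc
Mt2: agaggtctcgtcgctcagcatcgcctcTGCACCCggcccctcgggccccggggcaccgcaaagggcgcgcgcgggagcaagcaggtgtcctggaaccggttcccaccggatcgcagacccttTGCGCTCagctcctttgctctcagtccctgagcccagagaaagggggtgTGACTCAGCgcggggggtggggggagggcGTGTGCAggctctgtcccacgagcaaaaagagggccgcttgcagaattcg
Srxn1: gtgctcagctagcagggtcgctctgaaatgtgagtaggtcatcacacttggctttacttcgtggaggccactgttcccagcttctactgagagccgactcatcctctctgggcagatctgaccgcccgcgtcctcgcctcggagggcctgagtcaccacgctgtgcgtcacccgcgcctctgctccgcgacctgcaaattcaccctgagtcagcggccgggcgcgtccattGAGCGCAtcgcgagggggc
Nqo1: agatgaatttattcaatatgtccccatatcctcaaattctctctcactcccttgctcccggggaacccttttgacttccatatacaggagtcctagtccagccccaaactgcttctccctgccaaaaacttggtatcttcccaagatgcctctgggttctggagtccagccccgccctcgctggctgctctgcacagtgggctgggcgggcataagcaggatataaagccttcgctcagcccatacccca
The *Mt1* window lies at chr8:94178839-94179088 on the plus strand and the *Mt2* window at chr8:94172368-94172617 on the plus strand. The *Srxn1* window lies at chr2:152105274-152105523 on the plus strand and the *Nqo1* window at chr8:107403206-107403455 on the minus strand. Over the 300 bases, *Mt1* had 3 matches to the metal response core, 1 of them before the start and the others, TGCACTC and TGCGCTC, in the 50 bases after it. *Mt2* had 4 such matches and 1 match to the antioxidant core, TGACTCAGC, 79 to 71 bases before the start. Of 32851 windows of the same length, 1.97% held at least 3 metal response cores, 0.517% held at least 4, and 12.4% held at least 1 antioxidant core. *Srxn1* had 1 antioxidant core, 29 to 37 bases after the start, and 1 metal response core, and *Nqo1* had no match to either in this window. Of the others, *Nfe2l2*, *Gclm* and 1 of 3 windows of *Txnrd1* had 1 antioxidant core each. In *Gclm* that core overlapped the first of 3 metal response cores. A match is a run of letters and not a bound site, and the absence of one says only that these letters are not in this window.

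Fasting gave the largest differences among the 9 genes, and they belonged to the metallothioneins. *Mt1* and *Mt2* rose in fasted mice of both genotypes on both diets, 6.91- to 8.95-fold and 16- to 26.5-fold. The genes called were 2 of 9 in LWT mice on CTRL diet (5.45% of all genes), 3 of 9 in LWT mice on HFD (4.71%), 2 of 9 in LKO mice on CTRL diet (7.07%) and 3 of 9 in LKO mice on HFD (5.9%). Beyond the metallothioneins, the genes called were *Nfe2l2* in LWT mice on HFD and *Hmox1* in LKO mice on HFD, both lower in fasted mice. By adjusted p alone, 6, 6, 2 and 3 of 9 genes passed in these comparisons, in that order, against 32.5%, 28.4%, 35.4% and 28.5% of all genes.

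For HFD and genotype, the differences called at the brightest probe of each gene were smaller and lay in the antioxidant genes. With HFD, 1 of 9 genes was called in fasted LWT mice (*Nqo1*, against 2.81% of all genes), and 0 of 9 were called by limma in fed LWT mice (3.76%), fed LKO mice (2.32%) and fasted LKO mice (1.89%). At an unadjusted p below 0.05 these last counts were 8, 2 and 2 of 9, and after adjustment 5, 0 and 0 of 9 passed without the fold threshold (24.1%, 12.2% and 10.8% of all genes). In fasted LWT mice 3 of 9 did so (15.9%). Between genotypes, 2 of 9 genes were called in fed mice on HFD (*Nqo1* and *Srxn1*, both lower in LKO mice, against 6.24% of all genes). No gene of the 9 was called by limma between genotypes in fed or fasted mice on CTRL diet (3.72% and 3.24%) or in fasted mice on HFD (6.54%), where 2, 5 and 4 of 9 had an unadjusted p below 0.05 and 2, 2 and 4 of 9 passed by adjusted p alone (21.5%, 24.8% and 36.8% of all genes). In fed mice on HFD, 4 of 9 did so (32.9%). The median log2 fold change over the 9 genes was 0.56 for HFD in fed LWT mice and -0.43 for genotype in fed mice on HFD, where the medians over all genes were -0.01 and 0.03. Of the 6 interactions tested, 4 had 1 of 9 genes called, and these are given with *Nfe2l2* and *Hmox1*. None of the 9 was called by limma for the genotype by fasting interaction on CTRL diet (1.31% of all genes) or the genotype by HFD interaction in fed mice (1.34%), where 4 and 2 of 9 had an unadjusted p below 0.05.

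**Figure D1:**
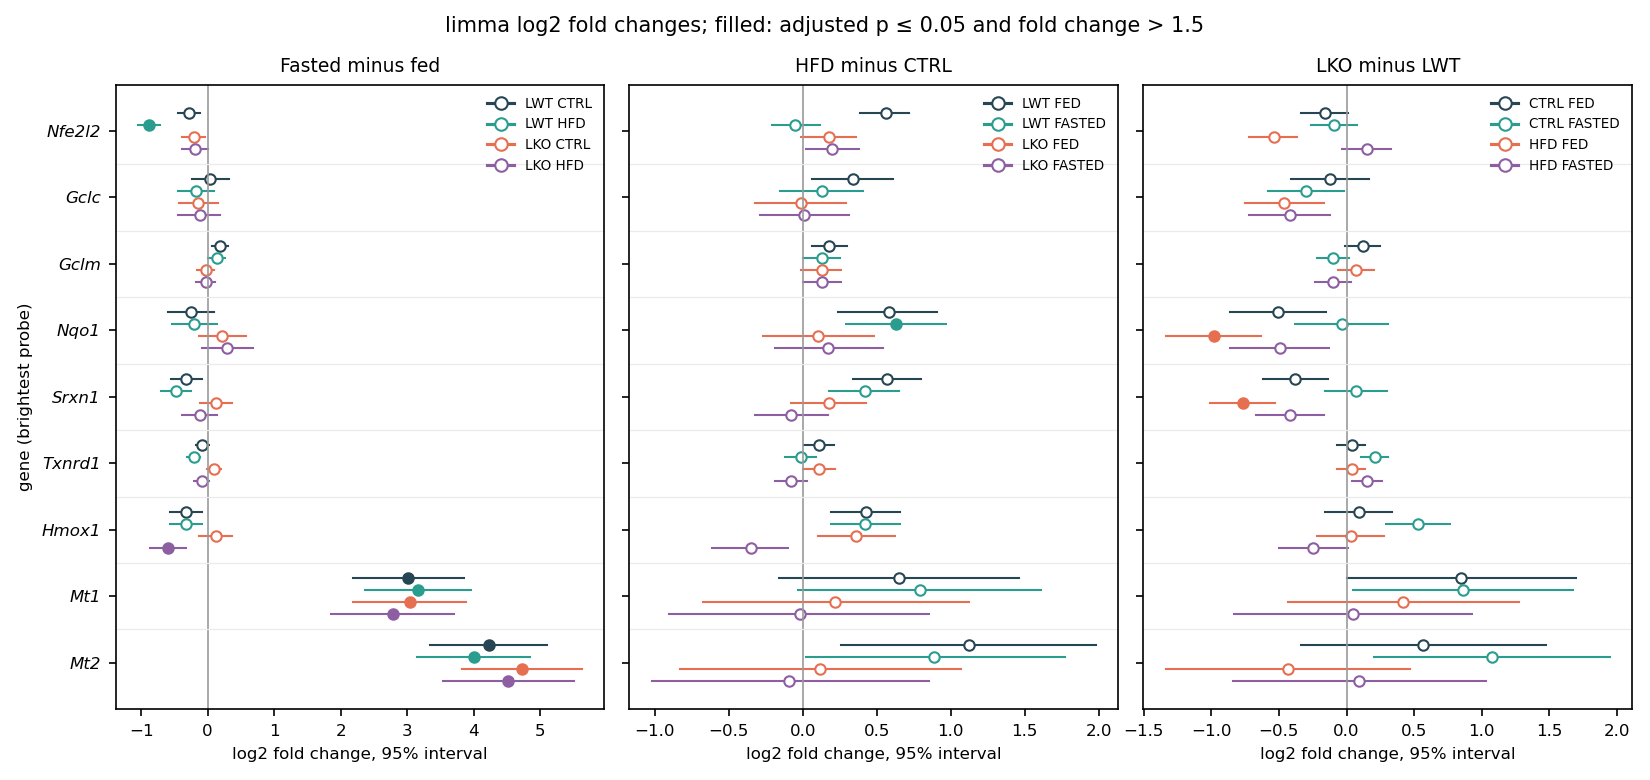
Log2 fold changes (x axis, dots) with 95% intervals (lines) from limma for the brightest probe of the 9 genes (y axis), for fasting, HFD and genotype, in 4 comparisons each (colours); filled dots passed an adjusted p of 0.05 and a fold change of 1.5. All 8 filled dots of the metallothioneins lie in the fasting panel, between 2.79 and 4.73, and the filled dots of *Nqo1* and *Srxn1* in the genotype panel lie at -0.98 and -0.77.

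*Nfe2l2*, the regulator, was measured by a probe at chr2:75513771-75513830 (mm9, minus strand). Its lowest, median and highest levels in fed LWT mice were 11.42, 11.60 and 11.77 on CTRL diet and 11.89, 12.14 and 12.45 on HFD. In fasted LWT mice they were 11.23, 11.29 and 11.56 on CTRL diet and 11.04, 11.33 and 11.50 on HFD. Every fed LWT mouse on HFD thus lay above every mouse of the other 3 LWT groups. In LKO mice the levels were 11.28, 11.42 and 11.60 (fed, CTRL), 11.14, 11.24 and 11.30 (fasted, CTRL), 11.50, 11.63 and 11.81 (fed, HFD) and 11.17, 11.48 and 11.64 (fasted, HFD). Fed LKO mice on HFD lay below all fed LWT mice on HFD. Ordered by mean, the 8 groups spanned 0.94, and only the step from fed LWT mice on HFD (12.16) to the next group, fed LKO mice on HFD (11.64), exceeded the larger of the 2 SDs.

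With fasting, *Nfe2l2* fell by 0.88 on the log2 scale in LWT mice on HFD (standard error 0.08, 1.85-fold, limma adjusted p = 1.53e-11), with no overlap, as for 10.9% of all genes in that comparison. The difference was -0.28 in LWT mice on CTRL diet (adjusted p = 0.00784, under the fold threshold), -0.21 in LKO mice on CTRL diet (adjusted p = 0.0523) and -0.19 in LKO mice on HFD (adjusted p = 0.138). The fasting difference itself differed between diets in LWT mice, by -0.60 (95% interval -0.84 to -0.37, adjusted p = 0.00243, called for 0.893% of all genes), which lay close to the 1.5-fold threshold. Without the 2 arrays nearest another group's mean it was -0.58 (adjusted p = 0.00413), under that threshold and so not called. The call was lost in 8 of 16 alternatives, that one included, and in 8 of 24 fits that left out an array. The fasting difference also differed between genotypes on HFD, by 0.70 (0.45 to 0.95, adjusted p = 0.000486, called for 1.37% of all genes), and by 0.71 without those arrays. This call was lost in 2 of 16 alternatives, the median of both probes (0.44, adjusted p = 0.0521) and the first washing batch only (0.61, adjusted p = 0.142), and in 0 of 24 fits that left out an array. In fed mice, *Nfe2l2* was 1.47-fold higher on HFD in LWT mice (log2 fold change 0.56, adjusted p = 2.21e-06) and 1.46-fold lower in LKO than in LWT mice on HFD (-0.54, adjusted p = 3.47e-06), each without overlap (9.51% and 13% of all genes) and each just under the fold threshold.

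The second *Nfe2l2* probe, at chr2:75529291-75529350 (mm9), gave another picture for fasting. Its fasting difference in LWT mice on HFD was -0.06 (adjusted p = 0.802), with median levels of 9.61 in fed and 9.65 in fasted mice, so the fall of the brightest probe was not seen there. Its genotype by fasting interaction on HFD was 0.19 (-0.26 to 0.65, adjusted p = 0.735) and its diet by fasting interaction in LWT mice -0.07 (-0.50 to 0.35, adjusted p = 0.911). Between genotypes on HFD it was lower in LKO mice, by -0.95 in fed mice (adjusted p = 5.83e-06) and by -0.76 in fasted mice (adjusted p = 0.000233), and both were called. In fasted mice on HFD the brightest probe was at 0.15 (95% interval -0.03 to 0.33, adjusted p = 0.183), on the other side of 0. The second probe's levels in fed mice on HFD were 9.38, 9.61 and 9.83 in LWT and 8.30, 8.65 and 8.98 in LKO mice, with no overlap. Both probes thus read the genotype difference of fed mice on HFD, and they differ on fasting and on genotype in fasted mice on HFD.

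*Gclc* and *Gclm* encode the catalytic and the modifier subunit of glutamate-cysteine ligase, which performs the first step of glutathione synthesis. *Gclc* (chr9:77641296-77641355, mm9) was called in no comparison. Its levels in fed mice on HFD were 13.49, 13.64 and 13.92 in LWT and 13.00, 13.21 and 13.54 in LKO mice, which overlap slightly. The difference was -0.46 (standard error 0.14, adjusted p = 0.0113), and in fasted mice on HFD it was -0.42 (adjusted p = 0.025). On CTRL diet the genotype differences of *Gclc* were -0.12 (95% interval -0.41 to 0.17) in fed and -0.30 (-0.58 to -0.02, adjusted p = 0.114) in fasted mice. Replicate mice of *Gclc* varied most in fed mice on CTRL diet, with SDs of 0.35 in LWT and 0.48 in LKO mice, against 0.08 in fasted LKO mice on CTRL diet.

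*Gclm* (chr3:121967737-121967796, mm9) moved little. Its group means spanned 0.34, from 13.20 in fed LWT mice on CTRL diet to 13.55 in fasted LWT mice on HFD. The difference with fasting in LWT mice on CTRL diet was 0.19 (adjusted p = 0.0163) and that with HFD in fed LWT mice was 0.18 (adjusted p = 0.0255). The levels in that HFD comparison were 13.13, 13.21 and 13.28 on CTRL diet and 13.34, 13.39 and 13.51 on HFD, so the groups did not overlap although the difference was a 1.13-fold one. The largest difference of *Gclc* between groups of 1 comparison was 1.38-fold.

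*Nqo1*, which encodes a quinone reductase widely used as a readout of NRF2, was measured at chr8:109912440-109912499 (mm9). In LWT mice its levels were 7.27, 7.96 and 8.50 (fed, CTRL), 7.45, 7.83 and 8.0 (fasted, CTRL), 8.25, 8.63 and 8.86 (fed, HFD) and 7.99, 8.40 and 8.75 (fasted, HFD). In LKO mice they were 6.74, 7.40 and 7.91 (fed, CTRL), 7.59, 7.67 and 8.0 (fasted, CTRL), 6.96, 7.62 and 8.29 (fed, HFD) and 7.61, 7.87 and 8.28 (fasted, HFD). The LWT groups on HFD had the highest 2 means, and 1 fed LKO mouse on HFD reached into the range of fed LWT mice on HFD.

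Between genotypes in fed mice on HFD, *Nqo1* was 1.97-fold lower in LKO mice (log2 fold change -0.98, standard error 0.18, limma adjusted p = 2.72e-05, and -0.97 without the 2 arrays nearest another group's mean). In fasted mice on HFD the difference was -0.49 (adjusted p = 0.031) and in fed mice on CTRL diet -0.51 (adjusted p = 0.0344), both under the fold threshold. In fasted mice on CTRL diet it was -0.03 (95% interval -0.38 to 0.31). With HFD, *Nqo1* was 1.55-fold higher in fasted LWT mice (0.63, adjusted p = 0.00858), which was called but fell under the fold threshold without any of 3 mice (0.55 to 0.57), and 1.49-fold higher in fed LWT mice (0.58, adjusted p = 0.0101), which fell just short. In LKO mice the HFD differences were 0.10 (-0.27 to 0.48) fed and 0.17 (-0.19 to 0.54) fasted. The genotype by HFD interaction itself was not past the threshold, at -0.47 (-0.97 to 0.03, adjusted p = 0.323) in fed and -0.46 (-0.96 to 0.04, adjusted p = 0.295) in fasted mice.

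*Srxn1* encodes sulfiredoxin, which restores over-oxidized peroxiredoxins, and was measured at chr2:151937009-151937068 (mm9). Its levels in fed mice on HFD were 12.18, 12.53 and 12.67 in LWT and 11.47, 11.70 and 11.94 in LKO mice. Every LKO mouse lay below every LWT mouse in that comparison, as for 13% of all genes. The other LWT groups were at 11.39, 11.94 and 12.18 (fed, CTRL), 11.21, 11.67 and 11.96 (fasted, CTRL) and 11.87, 11.95 and 12.46 (fasted, HFD). In LKO mice, the highest level in any group was 11.99, and the medians of the 4 groups lay between 11.52 and 11.74. In order of mean level, the step from fed to fasted LWT mice on HFD exceeded the larger SD (0.42 against 0.22). No other step between neighbouring groups did.

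*Srxn1* was 1.71-fold lower in LKO mice in fed mice on HFD (-0.77, standard error 0.12, limma adjusted p = 1.96e-06, and again -0.77 without the 2 arrays nearest another group's mean, adjusted p = 2.2e-06). The difference was -0.42 in fasted mice on HFD (adjusted p = 0.00628) and -0.38 in fed mice on CTRL diet (adjusted p = 0.0183), neither called. With HFD it was 1.48-fold higher in fed LWT mice (0.57, adjusted p = 0.000214) and 1.33-fold in fasted LWT mice (0.42, adjusted p = 0.0104), both short of the fold threshold. In LKO mice the HFD differences were 0.18 (-0.08 to 0.43) and -0.08 (-0.32 to 0.17). Fasting gave -0.48 in LWT mice on HFD (adjusted p = 0.00101) and -0.32 on CTRL diet (adjusted p = 0.0298). The interactions of *Srxn1* were not past the threshold, the nearest being genotype by HFD in fasted mice (-0.49, -0.83 to -0.15, adjusted p = 0.0769).

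*Txnrd1*, which encodes cytosolic thioredoxin reductase, was measured at chr10:82360230-82360289 (mm9) and varied least of the 9 genes. Its group means spanned 0.25, from 12.35 to 12.60, and no step between neighbouring groups exceeded the larger SD. The differences that passed by adjusted p alone were small: 0.21 between genotypes in fasted mice on CTRL diet (adjusted p = 0.00157), 0.15 in fasted mice on HFD (adjusted p = 0.0274) and -0.21 with fasting in LWT mice on HFD (adjusted p = 0.00134). In the comparison where *Nqo1* and *Srxn1* were called, fed mice on HFD, the genotype difference of *Txnrd1* was 0.04 (-0.07 to 0.14), and that of its second probe was 0.03 (adjusted p = 0.819). *Gclm* there was at 0.07 (-0.06 to 0.20).

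*Hmox1* encodes heme oxygenase, which opens the heme ring and is abundant in macrophages that clear red cells. It was measured at chr8:77624406-77624466 (mm9). Its levels in LWT mice were 10.54, 10.67 and 11.47 (fed, CTRL), 10.20, 10.40 and 10.58 (fasted, CTRL), 10.80, 11.15 and 11.43 (fed, HFD) and 10.76, 10.78 and 11.08 (fasted, HFD). In LKO mice they were 10.40, 10.75 and 11.03 (fed, CTRL), 10.60, 10.99 and 11.12 (fasted, CTRL), 10.72, 11.18 and 12.17 (fed, HFD) and 10.42, 10.55 and 10.79 (fasted, HFD). Fasted LKO mice on CTRL diet lay above all fasted LWT mice on CTRL diet, and the 2 highest single values, 12.17 and 11.47, came from the arrays named above as nearest another group's mean.

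With fasting, *Hmox1* was called in LKO mice on HFD, where it fell by 0.60 on the log2 scale (1.51-fold, limma adjusted p = 0.000693), with overlap of the groups. The difference lay at the 1.5-fold threshold, and its call was lost in 6 of 12 fits that left out an array, where it ran from -0.71 to -0.53 with adjusted p no higher than 0.00331. Without fed LKO mouse 3 on HFD the difference was -0.53 (adjusted p = 0.0011), without both arrays nearest another group's mean it was -0.53 (adjusted p = 0.000331), and it was -0.35 in the first washing batch and -0.81 in the second. In LWT mice the fasting difference was -0.32 on both diets (adjusted p = 0.0355 on CTRL diet and 0.0329 on HFD), and in LKO mice on CTRL diet it was 0.12 (-0.13 to 0.36). The fasting difference differed between diets in LKO mice, by -0.71 (-1.08 to -0.35, adjusted p = 0.00931, called for 2.88% of all genes). That value was -0.64 (adjusted p = 0.00379) without both arrays nearest another group's mean, -0.45 (adjusted p = 0.337) in the first washing batch and -1 (adjusted p = 0.053) in the second. With HFD, *Hmox1* was 0.43 higher in fed and 0.42 higher in fasted LWT mice (adjusted p = 0.00697 and 0.0116), 0.36 higher in fed LKO mice (adjusted p = 0.0636) and at -0.35 in fasted LKO mice (adjusted p = 0.0674). In fasted mice the HFD difference differed between genotypes, by -0.78 (-1.13 to -0.43, adjusted p = 0.00643, called for 1.85% of all genes). Between genotypes the largest difference was in fasted mice on CTRL diet, where *Hmox1* was 1.45-fold higher in LKO mice (0.53, adjusted p = 0.000733), without overlap (10.3% of all genes) but under the fold threshold.

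Markers of Kupffer cells and other macrophages were read beside *Hmox1*. None of 8 was called by limma in any of the 12 comparisons of groups, where at most 2 passed by adjusted p alone, and the summed level of the 8 in LKO mice on HFD was 15.00 to 15.96 fed and 14.69 to 15.74 fasted. With fasting, 0 of 8 had positive differences in LWT mice on CTRL diet (median -0.27) and 1 of 8 in LKO mice on HFD (median -0.17), where the medians over all genes were 0. In fasted mice, *Cd68*, a lysosomal protein of macrophages, was called for the same genotype by HFD interaction as *Hmox1*, at -0.59 (adjusted p = 0.0206). In fasted mice on CTRL diet, where *Hmox1* was 0.53 higher in LKO mice, all 8 markers had positive differences, with a median of 0.33 (0.01 over all genes), and 1 passed by adjusted p alone, *Vsig4*, a complement receptor of Kupffer cells, at 0.47 (adjusted p = 0.023). For the diet by fasting interaction in LKO mice, 0 of 8 were positive and the median was -0.18 (0.01 over all genes). The part of such cells in the level of *Hmox1* was not tested.

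**Figure D2:**
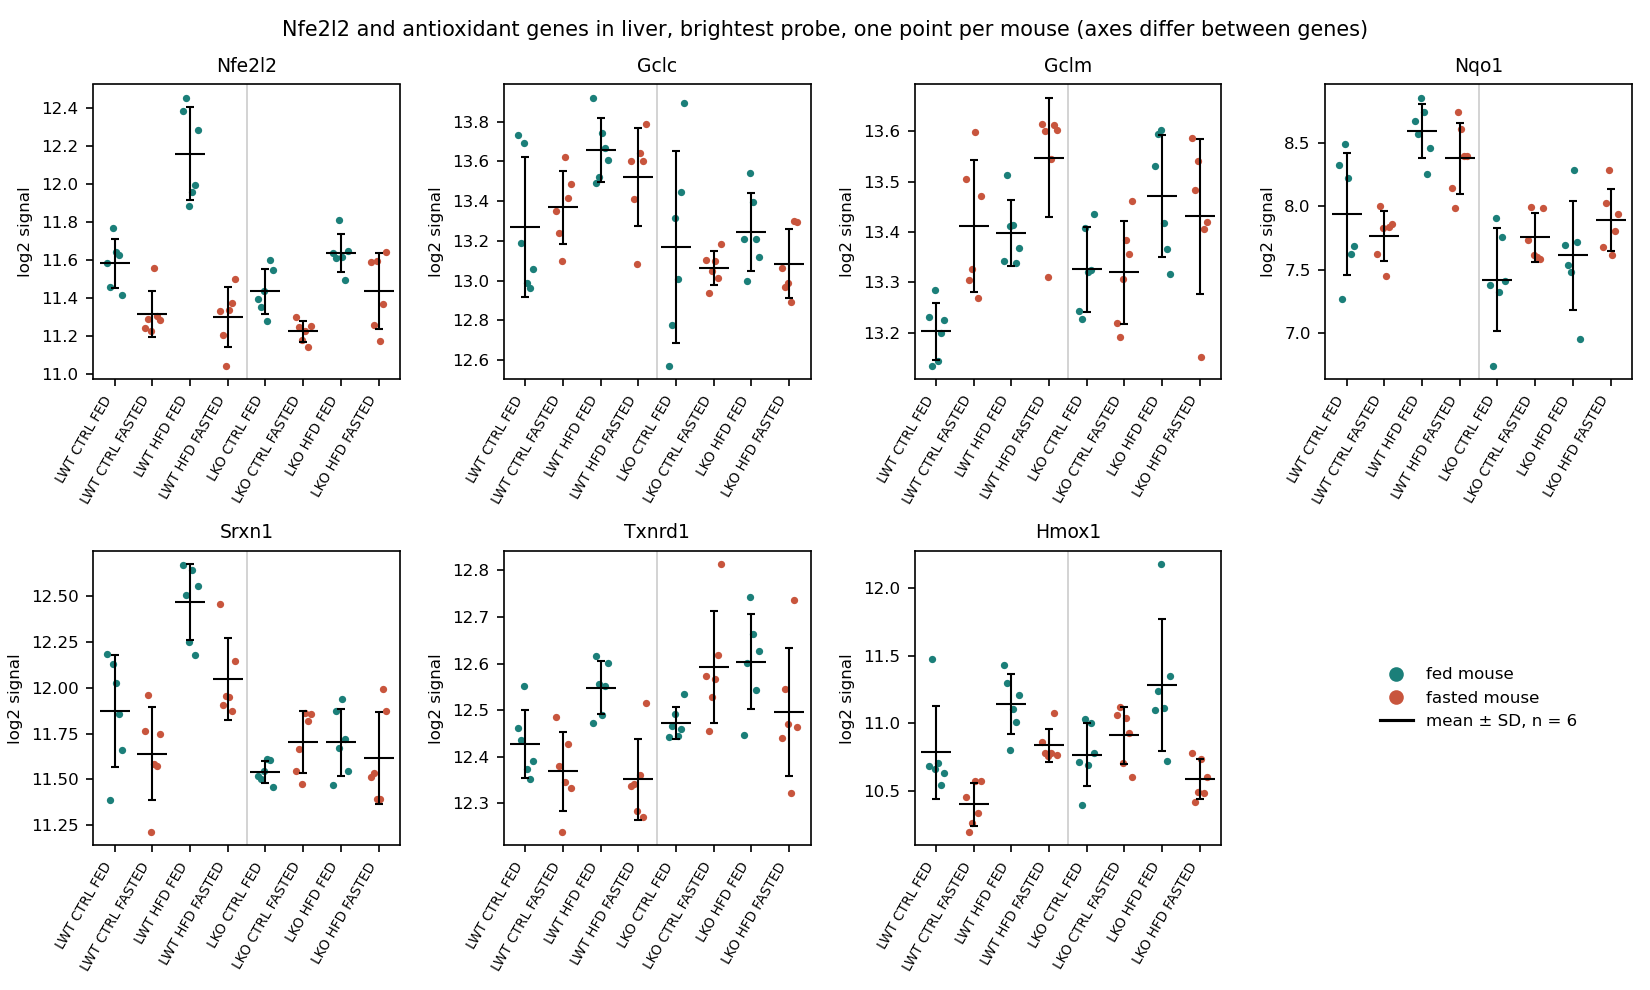
Normalized log2 signal (y axis, a different range in each panel) of *Nfe2l2* and 6 antioxidant genes in the 8 groups (x axis), with 1 point per mouse, fed in green and fasted in red, and the mean ± SD of 6 mice in black. *Nfe2l2* and *Srxn1* are highest in fed LWT mice on HFD (means 12.16 and 12.47), while the means of *Gclm* and *Txnrd1* span 0.34 and 0.25.

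*Mt1* and *Mt2* encode the metallothioneins of liver and lie next to each other on chromosome 8. Their brightest probes are at chr8:96704165-96704224 and chr8:96697371-96697430 (mm9) and share no run longer than 7 bases, and their match to the transcript of the other gene was not tested. *Mt1* levels in fed mice were 11.68, 13.58 and 15.56 (LWT, CTRL), 13.67, 14.13 and 14.75 (LWT, HFD), 13.15, 14.47 and 15.00 (LKO, CTRL) and 12.54, 15.11 and 15.96 (LKO, HFD). In fasted mice they were 15.86, 16.61 and 17.23 (LWT, CTRL), 16.44, 17.29 and 17.80 (LWT, HFD), 16.92, 17.45 and 17.69 (LKO, CTRL) and 16.83, 17.24 and 17.82 (LKO, HFD). In each genotype and diet every fasted mouse lay above every fed mouse, and fed mice were more spread out in 3 of 4 cases, with SDs of 1.40 (LWT, CTRL), 0.68 (LKO, CTRL), 1.24 (LKO, HFD) and 0.38 (LWT, HFD) against 0.30 to 0.48 in the 4 fasted groups.

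*Mt2* levels in fed mice were 10.42, 11.78 and 14.58 (LWT, CTRL), 12.54, 13.08 and 13.98 (LWT, HFD), 11.42, 12.41 and 14.12 (LKO, CTRL) and 11.30, 12.97 and 14.80 (LKO, HFD). In fasted mice they were 15.29, 16.46 and 17.13 (LWT, CTRL), 16.24, 17.11 and 17.77 (LWT, HFD), 16.75, 17.43 and 17.87 (LKO, CTRL) and 16.76, 17.23 and 17.68 (LKO, HFD). All 24 fasted mice lay above all 24 fed mice. Ordered by mean, the step between the lowest fasted group (LWT, CTRL) and the highest fed group (LWT, HFD) was 3.16, and the only other step over the larger SD was that of 0.76 from fasted LWT mice on HFD to those on CTRL diet.

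**Figure D3:**
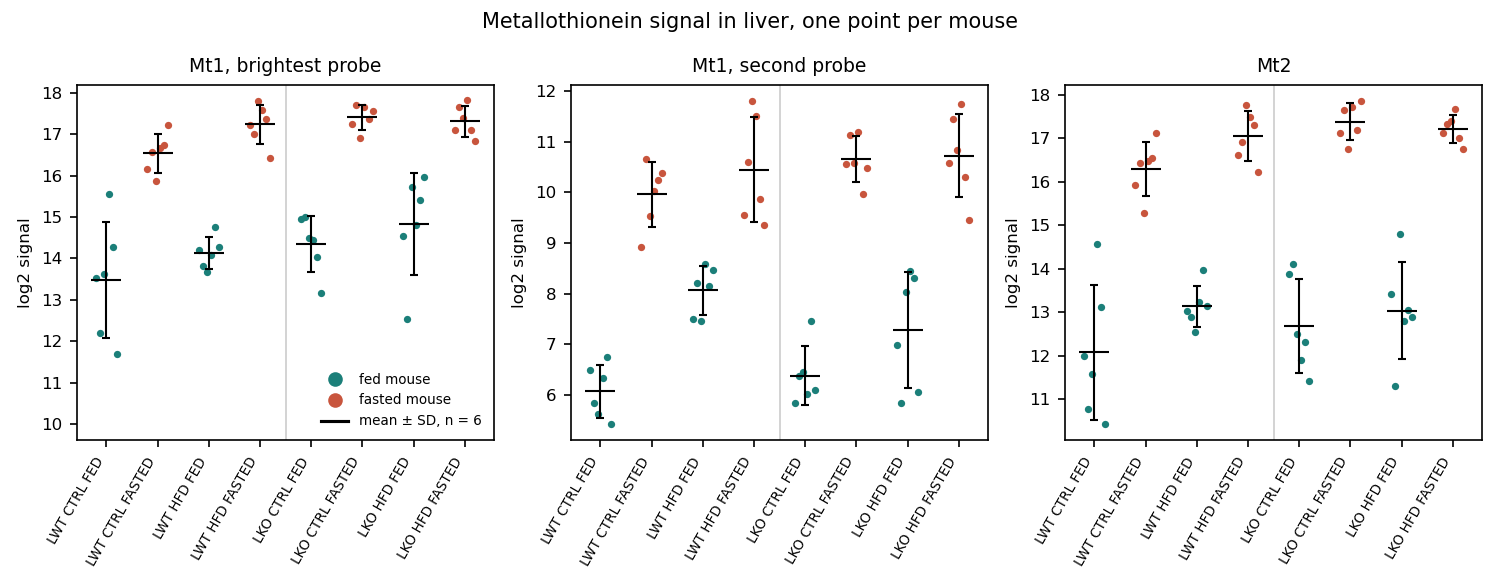
Normalized log2 signal (y axis) of both *Mt1* probes and of *Mt2* in the 8 groups (x axis), with 1 point per mouse, fed in green and fasted in red, and the mean ± SD of 6 mice in black. Fasted mice lie above fed mice of the same genotype and diet in each panel, and the *Mt2* means run from 12.08 in fed LWT mice on CTRL diet to 17.39 in fasted LKO mice on CTRL diet.

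The fasting difference of *Mt1* was 3.02 in LWT mice on CTRL diet (8.11-fold, limma adjusted p = 1.63e-07) and 3.16 on HFD (8.95-fold, adjusted p = 4.11e-08). In LKO mice it was 3.04 on CTRL diet (8.2-fold, adjusted p = 1.53e-07) and 2.79 on HFD (6.91-fold, adjusted p = 9.77e-06). For *Mt2* it was 4.23 (18.7-fold, adjusted p = 3.67e-10) and 4.0 (16-fold, adjusted p = 7.35e-10) in LWT mice, and 4.73 (26.5-fold, adjusted p = 1.62e-11) and 4.52 (23-fold, adjusted p = 2.43e-09) in LKO mice, on CTRL diet and HFD. The groups did not overlap in any of these 8 tests, which was so for 11.8%, 10.9%, 15.6% and 8.44% of all genes in the 4 comparisons, in the order LWT on CTRL diet, LWT on HFD, LKO on CTRL diet and LKO on HFD. Within the washing batches the differences in LWT mice on CTRL diet were 1.91 and 3.82 for *Mt1* and 2.72 and 5.36 for *Mt2*, a wider split than in the other 3 comparisons. Without the 2 arrays nearest another group's mean, the differences were 2.82 and 4.03 in LWT mice on CTRL diet and 2.94 and 4.72 in LKO mice on HFD, for *Mt1* and *Mt2*.

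At the brightest probes, no interaction of fasting with genotype or diet passed the test for *Mt1* or *Mt2*. The genotype by fasting interaction of *Mt1* was 0.02 (95% interval -1.16 to 1.20) on CTRL diet and -0.37 (-1.60 to 0.85) on HFD, and that of *Mt2* was 0.50 (-0.75 to 1.76) and 0.53 (-0.78 to 1.83). The diet by fasting interaction of *Mt1* was 0.14 (-1.01 to 1.29) in LWT and -0.25 (-1.50 to 1.00) in LKO mice, and that of *Mt2* was -0.23 (-1.45 to 1.00) and -0.21 (-1.54 to 1.13). The intervals are wide. For HFD in fed LWT mice, *Mt2* was at 1.12 (0.26 to 1.98, adjusted p = 0.0519) and *Mt1* at 0.65 (-0.16 to 1.46, adjusted p = 0.258). In fasted LKO against LWT mice on CTRL diet, *Mt2* was at 1.08 (0.20 to 1.95, adjusted p = 0.0647) and *Mt1* at 0.86 (0.05 to 1.68, adjusted p = 0.119).

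The second *Mt1* probe (chr8:96703844-96703903, mm9) was well above background on 47 of 48 arrays and gave the same direction for fasting, with differences of 2.50 to 4.33, all called. It differed from the brightest probe in 2 comparisons. With HFD in fed LWT mice it was 2.12 higher (adjusted p = 6.99e-05), with levels of 5.41, 6.08 and 6.74 on CTRL diet and 7.46, 8.19 and 8.58 on HFD. Between genotypes in fed mice on HFD it was at -1.09 (adjusted p = 0.038), where the brightest probe was at 0.42 (-0.43 to 1.28). The probes of *Mt1* thus disagree on the call for HFD in fed LWT mice and for genotype in fed mice on HFD, where the interval of the brightest probe spans 0 and sets no sign. They share at most 4 bases in a row. At the second probe the fasting difference on HFD was 2.50 in LWT and 3.71 in LKO mice, an interaction of 1.21 (0.03 to 2.39, limma adjusted p = 0.291). In LWT mice it was 3.91 on CTRL diet, a diet by fasting interaction of -1.40 (-2.52 to -0.29, limma adjusted p = 0.185).

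Within groups, *Mt1* and *Mt2* varied together from mouse to mouse. After removal of the group means, Pearson's r over the 48 mice was 0.88 and Spearman's rho 0.83, each with p = 1e-05, the smallest that 1e+05 permutations of mice within groups can give, and an adjusted p of 0.00036 over the 36 pairs of the 9 genes. It was 0.93 and 0.81 in the 2 washing batches, 0.87 in fed and 0.94 in fasted mice, and 0.84 without the 2 mice farthest out in *Mt1*. Of the 36 pairs, 7 passed by r, against 4 with the slide removed, 4 with the signal scaled to the 75th percentile and 5 without correction of the washing batch. The others were *Nfe2l2* with *Gclc* (r = 0.47, rho = 0.49, adjusted permutation p = 0.00598) and with *Gclm* (0.47, 0.41, adjusted p = 0.00598), *Gclc* with *Gclm* (0.43, 0.40, adjusted p = 0.00598) and with *Txnrd1* (0.42, 0.40, adjusted p = 0.00288), *Srxn1* with *Txnrd1* (0.42, 0.35, adjusted p = 0.0435 by r and 0.144 by rho) and *Nfe2l2* with *Hmox1* (0.36, 0.42, adjusted p = 0.0435). The last did not hold within both batches, with r of 0.06 in the first and 0.57 in the second. With the slide removed *Nfe2l2* with *Gclc* (adjusted p = 0.0681), *Gclc* with *Txnrd1* (adjusted p = 0.0963) and *Nfe2l2* with *Hmox1* (adjusted p = 0.156) did not pass. With the 75th percentile scaling *Nfe2l2* with *Gclm* (adjusted p = 0.228), *Nfe2l2* with *Hmox1* (adjusted p = 0.15) and *Srxn1* with *Txnrd1* (adjusted p = 0.16) did not pass. Without correction of the washing batch *Nfe2l2* with *Gclm* (adjusted p = 0.121) and *Srxn1* with *Txnrd1* (adjusted p = 0.0514) did not pass. No pair of a metallothionein with one of the other 7 genes passed.

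**Figure D4:**
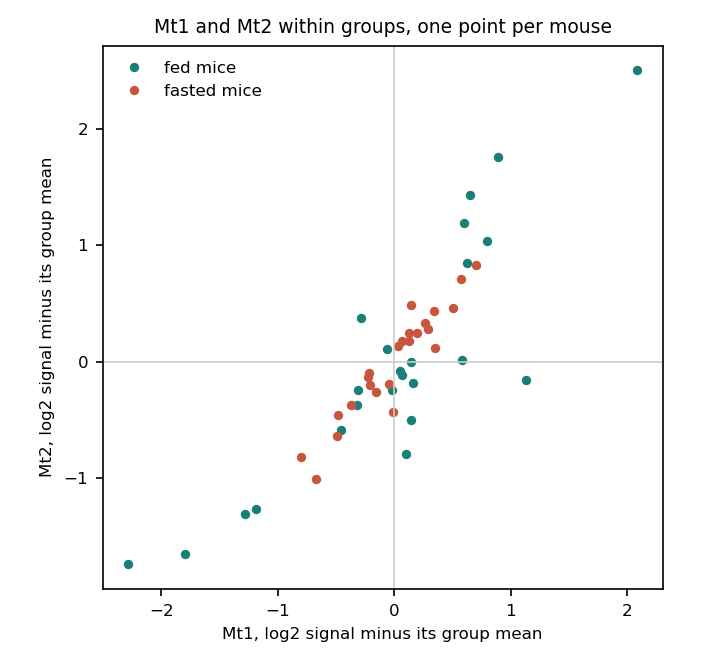
*Mt1* (x axis) against *Mt2* (y axis), each as the log2 signal of a mouse minus the mean of its group, for 24 fed (green) and 24 fasted mice (red). Points rise from lower left to upper right with r = 0.88 over the 48 mice, and fed mice spread more widely than fasted mice.

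Other genes of the pathway were read from lists. Of 25 further genes known as NRF2 targets, 23 were measured. Between genotypes in fed mice on HFD, 13 of the 23 were called lower in LKO mice (4.04% of all genes were) and 1 higher, with a median of -0.80, beside a median of 0.03 over all genes. The lower ones included *Me1*, malic enzyme, at -2.82 (adjusted p = 1.67e-12), *Cbr3*, a carbonyl reductase, at -1.72 (adjusted p = 2.75e-10) and *Gstm2*, a glutathione transferase, at -1.56 (adjusted p = 1.18e-09). In fasted mice on HFD, 8 were called lower (4.22% of all genes) and 0 higher, with *Me1* at -1.89 (adjusted p = 7.41e-08), *Gstm2* at -1.42 (adjusted p = 2.63e-08) and *Ugdh*, UDP-glucose dehydrogenase, at -1.06 (adjusted p = 1.09e-11). On CTRL diet 5 were called lower and 1 higher in fed mice (3.72% of all genes in either direction), the higher one being *Osgin1* at 1.09 (adjusted p = 0.0139), and 1 lower (*Me1*, -0.69, adjusted p = 0.0229) in fasted mice (3.24% in either direction). Several of these genes, among them *Me1*, *Pgd* and *Tkt*, supply NADPH or pentose phosphates and are also known to follow insulin and carbohydrate signals.

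With HFD, calls on that list were mostly higher in LWT mice. In fed LWT mice 8 of 23 were called higher (2.65% of all genes) and 1 lower (median 0.41), with *Gstm2* at 1.44 (adjusted p = 1.18e-08), *Cbr3* at 1.35 (adjusted p = 1.09e-07) and *Gsta2*, a glutathione transferase, at 1.04 (adjusted p = 0.0111). In fasted LWT mice 7 were called higher (1.83% of all genes), with a median of 0.43. In LKO mice 1 was called higher and 2 lower when fed (2.32% of all genes in either direction), *Abcc3*, an efflux pump, at 0.90 (adjusted p = 1.51e-05) against *Me1* at -1.48 and *Gstp1* at -0.76, and 0 of 23 by limma when fasted (1.89%), where 2 passed by adjusted p alone. With fasting 7 of 23 in LWT mice on CTRL diet and 5 on HFD were called lower (2.52% and 2.47% of all genes) and none higher, led by *Me1* (-1.84 and -1.45), *Pgd*, a pentose phosphate dehydrogenase (-1.40 and -1.38), and *Tkt*, transketolase (-1.28 and -1.04). In LKO mice on CTRL diet 8 were called lower (3.43% of all genes) and 1 higher (3.65%), and on HFD 3 lower (3.14%) and 0 higher.

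Among 10 measured partners and regulators of NRF2, *Maff*, a small MAF protein that pairs with NRF2, stood out. It was higher in fasted mice by 1.33 in LWT mice on CTRL diet (adjusted p = 1.55e-09), 1.56 in LKO mice on CTRL diet (adjusted p = 2.46e-11) and 1.55 in LKO mice on HFD (adjusted p = 1.46e-09). It was also higher with HFD in fed LWT mice, by 1.13 (adjusted p = 1.51e-07), and in LKO mice in 3 of 4 genotype comparisons, by 0.78 to 1.04. *Bach1*, which represses *Hmox1* and other targets, was 0.75 to 0.79 higher in the same 3 fasting comparisons. The adaptor gene *Keap1* was called in no comparison between groups.

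Among 19 measured enzymes of glutathione, thioredoxin and peroxide metabolism, *Gpx4*, a glutathione peroxidase of membrane lipids, was the only one called in any of the 12 comparisons between groups. It was lower in LKO mice on HFD, by -0.86 in fed (adjusted p = 1.39e-10) and -0.67 in fasted mice (adjusted p = 1.09e-07). Of 11 genes of heme metabolism, *Alas1*, the first enzyme of heme synthesis, was higher in fasted mice by 0.75 to 0.98 in 3 of 4 comparisons, and *Cd163*, the macrophage receptor for haemoglobin, was higher in fasted than fed LKO mice on both diets (0.73 and 0.75).

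Among 15 measured genes of metal handling, 1 was called higher with fasting, in 1 of 4 comparisons. *Slc30a10*, a manganese exporter, was lower in fasted mice in all 4 comparisons, by -1.06 to -1.40, and *Slc39a10*, a zinc importer, was lower in fasted LWT mice on CTRL diet (-0.72) and HFD (-0.83). *Slc39a14*, a zinc and iron importer, was the one higher, in fasted LWT mice on HFD (0.68, adjusted p = 1.18e-07). *Slc39a4*, another zinc importer, was higher with HFD in fed (1.02) and fasted (0.76) LWT mice, and in LKO mice on CTRL diet (0.76 fed, 1.01 fasted). The metal-sensing factor *Mtf1* was called in no comparison between groups.

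Beside *Mt2*, which is itself on that list, the glucocorticoid-responsive genes called higher with fasting included *Fkbp5*, a chaperone of steroid receptors, at 0.59 to 2.26 in all 4 comparisons, and *Zbtb16*, a transcription factor, at 1.14 to 1.83 in 3. Of the 11 genes on that list, with *Mt2* counted, 6 were called higher in LWT mice on CTRL diet and 6 in LWT mice on HFD. In LKO mice 5 were called higher on CTRL diet and 6 on HFD. The shares of all genes called higher were 2.93%, 2.24%, 3.65% and 2.76%. The medians of the 11 genes, *Mt2* included, were 0.59, 0.60, 0.66 and 0.78. The only one called lower was *Dusp1*, a phosphatase of MAP kinases, in LWT mice on HFD (-0.85, adjusted p = 0.0156). Of 13 acute phase genes, 2, 4, 4 and 4 were called higher with fasting in the same order, beside those shares of all genes, and 0 lower. Among them were *Lcn2*, lipocalin 2, at 0.97 to 1.07 in 3 comparisons and *Il6ra*, the interleukin 6 receptor, at 0.79 to 0.95 in 3. *Lcn2* is on both lists. By adjusted p alone 5, 6, 6 and 6 of the 13 were higher and 2, 0, 3 and 0 lower. In either direction 32.5%, 28.4%, 35.4% and 28.5% of all genes passed. The medians of the 13 were 0.15, 0.44, 0 and 0.53. Glucocorticoids and acute phase cytokines are known to act on the metallothionein genes, and the part of either in the rise was not tested.

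The summed level of 6 hepatocyte markers, which its brightest members set, was between 20.32 and 20.43 on all 48 arrays. At most 1 of 6 was called in a comparison of groups, and it was *Cps1*, a urea cycle enzyme. Between genotypes it was higher in LKO mice by 1.36 in fed mice on HFD (adjusted p = 4.17e-11), by 1.1 in fasted mice on HFD (adjusted p = 1.96e-08) and by 0.68 in fed mice on CTRL diet (adjusted p = 0.000147). With HFD in fed LWT mice *Cps1* was at -0.82 (adjusted p = 2.81e-06). Bile duct markers were mostly lower in LKO mice on both diets. Positive differences were seen for 0 of 5 in fed and fasted mice on CTRL diet and for 1 of 5 in each on HFD. By adjusted p alone 3 of 5 were lower in fed and 4 of 5 in fasted mice on CTRL diet. In either direction 21.5% and 24.8% of all genes passed there. *Spp1* was at -1.75 in fed (adjusted p = 1.3e-09) and -1.88 in fasted mice (adjusted p = 5.52e-11). In the same comparison of fed mice *Nqo1* was at -0.51 (adjusted p = 0.0344) and *Srxn1* at -0.38 (adjusted p = 0.0183), and in that of fasted mice they were at -0.03 and 0.07. In fed mice on HFD 4 of 5 were lower by adjusted p (32.9% of all genes in either direction), with a median of -0.51. Among them 2 were called (4.04% of all genes), *Spp1* at -2.23 (adjusted p = 7.1e-13) and *Krt19* at -0.89 (adjusted p = 0.000115). The summed level of the 5 was 11.31 to 12.40 in LWT and 9.81 to 10.14 in LKO mice. That is near the means of *Spp1* alone, 11.66 and 9.4. In fasted mice on HFD 4 of 5 were lower by adjusted p (36.8%) and 2 were called (4.22%). *Spp1* was at -2.63 and *Krt19* at -0.73 there. With HFD *Spp1* was called higher in fed (0.66) and fasted (0.99) LWT mice. Neutrophil markers moved with HFD in LWT mice, with 2 of 4 called higher in fed and 3 of 4 in fasted mice (2.65% and 1.83% of all genes). The summed level of the 4 was 10.04 to 12.04 in fed mice on HFD against 9.63 to 10.32 on CTRL diet. In fasted mice on HFD 3 of 4 were called lower in LKO mice (4.22% of all genes). They were *S100a9* at -1.52 (adjusted p = 0.000361), *S100a8* at -1.29 (adjusted p = 0.00068) and *Mpo* at -0.73 (adjusted p = 0.0152). *S100a9* and *S100a8* were also called for the genotype by HFD interaction in fasted mice that was called for *Hmox1*, at -1.52 (adjusted p = 0.0428) and -1.40 (adjusted p = 0.0389). Red blood cell markers were called higher with HFD in fasted LKO mice (3 of 4, against 1.89% of all genes in either direction). They were called lower with fasting in LKO mice on CTRL diet (4 of 4, against 3.43% of all genes). Of 5 stellate and 5 endothelial markers at most 2 and 1 were called in any comparison. In fasted mice on HFD, 4 of 5 endothelial markers were higher in LKO mice by adjusted p alone and 0 lower (36.8% of all genes in either direction). Their median was 0.41 (0.03 over all genes), and *Clec4g* was called at 0.68 (adjusted p = 0.000285). *Lyve1* was called lower in fed LKO than in fed LWT mice (-1.13 on CTRL diet, -0.82 on HFD). With fasting it was called higher in LKO mice (1.07 and 0.82). The stellate marker *Col1a1*, a collagen chain, was at 1.29 with HFD in fed LWT mice (adjusted p = 0.000152) and at 1.83 in fasted LWT mice (adjusted p = 1.98e-06). Between genotypes on HFD *Col1a1* was at -1.79 in fed mice (adjusted p = 8.08e-07) and at -2.32 in fasted mice (adjusted p = 7.56e-09). In fasted mice on CTRL diet it was called at -0.99 (adjusted p = 0.00273). *Col1a1* was also called lower with fasting in LWT mice on CTRL diet (-0.83) and in LKO mice on CTRL diet (-1.17) and HFD (-0.81). Of 3 lymphocyte markers 0 were called by limma, with at most 1 passing by adjusted p alone. The part of these cells in the levels of the 9 genes was not tested.

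As a description, the genes whose 8 group means followed each member most closely were sought over all 20486 genes. For *Nqo1* they were *Aox1* (r = 0.99), which is also on the list of NRF2 targets, *Krt79* (0.976) and *Psmd8* (0.972). For *Srxn1* they were *Prdx3*, a mitochondrial peroxiredoxin (0.988), *Tnfrsf22* and *Tceanc2* (0.986 each). For *Mt1* they were *Pip5k1a* (0.992), *Lbp* (0.988) and *Susd6* (0.981), and for *Mt2* *Pip5k1a* (0.996), *Zbtb10* (0.994) and *Nlrp12* (0.991). *Nfe2l2* was most like *Dync1li2* (0.992), *Sapcd2* (0.986) and *Tubb4b* (0.976), and *Gclc* most like *Alg14* (0.991), *Arhgap30* (0.991) and *Tex2* (0.986). The closest genes to *Gclm* were *Dclk2* (0.958), *Glg1* (0.931) and *Ubald2* (0.924), those to *Txnrd1* were *Shroom4* (0.978), *Rcbtb1* (0.946) and *Fpgt* (0.943), and those to *Hmox1* with a gene name were *Gm32688* (0.947) and *Erlin1* (0.946). With 8 points and this many genes, high values are frequent, and the range of the group means ran from 0.21 for *Erlin1* to 4.83 for *Pip5k1a*.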

How the data were processed

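Liver RNA of 48 mice was measured on Agilent 8x60K one-colour arrays. The authors labelled 200 ng of RNA, scanned the arrays and deposited spot intensity values from Agilent Feature Extraction 10.10.1.1, and also deposited a table of log2 values that they had filtered, corrected for the washing batch and quantile normalized. The median spot intensity was used here. Control spots were left out, outlier spots set missing and spots of a probe averaged on the log2 scale. Probes well above background on at least 5 of 6 arrays of a group were kept, the washing batch was removed with group means protected, and arrays were quantile normalized. The number of arrays limits the precision.

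limma 3.58.1 in R 4.3.3 (statmod 1.5.0) fitted the 8 groups over all 48 arrays with array weights, 12 comparisons of groups and 6 interactions, with Benjamini-Hochberg adjustment over all probes kept. The brightest probe on average stood for a gene, and calls needed an adjusted p no higher than 0.05 with more than a 1.5-fold change. On simulated data for the fasting comparison of LWT mice on CTRL diet, 194 of 200 genes given a log2 change of 1 were recovered among 20459 genes, with 2 false calls. For the genotype by fasting interaction on CTRL diet 181 of 200 were recovered, with 1 false call. The simulated noise was normal and independent, with the same SD for a gene on every array and no washing batch or difference in array quality. Smaller changes were not simulated. The labels number the mice but do not say whether same-numbered mice share a litter or cage.

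The members and the gene lists were chosen with earlier results of these data known. All 9 members are named. Of a list, counts are given, and the genes named are taken from the 3 largest changes called on that list in a comparison, not all of which are named, and *Keap1*, *Mtf1* and *Vsig4* were added to these after their values were seen. Likeness names the 3 genes with the highest Pearson r over the 8 group means. Gene names are those of the array design, probe positions are on mm9 and promoter windows on GRCm38.p6. Alternatives covered the signal, background, scaling, filter, washing batch, slide, replicate block, array weights, probe summary, threshold, the deposited table and each array left out.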

Additional observations from a re-analysis of the deposited data

Results flagged for a closer look

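Single values stood apart in 5 of the 72 sets of 6 mice tested (9 genes in 8 groups) by Dixon's test, which flags about 1 in 20 sets by chance. *Nfe2l2* was 11.56 in replicate 4 of fasted LWT mice on CTRL diet, above the rest of its group. *Gclm* was 13.31 in replicate 3 of fasted LWT mice on HFD, below the rest. *Hmox1* was 11.47 in replicate 2 of fed LWT mice on CTRL diet and 11.08 in replicate 5 of fasted LWT mice on HFD, both above the rest. *Txnrd1* was 12.51 in replicate 6 of fasted LWT mice on HFD, above the rest.

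In 4 cases an effect differed between groups by the test of the interaction in limma. For *Nfe2l2*, the fasting difference on HFD differed between genotypes by 0.70 (adjusted p = 0.000486), a call lost in 2 of 16 alternatives, and that in LWT mice differed between diets by -0.60 (adjusted p = 0.00243), a call lost in 8 of 16 alternatives and in 8 of 24 fits that left out an array. At the second *Nfe2l2* probe these were 0.19 (adjusted p = 0.735) and -0.07 (adjusted p = 0.911). For *Hmox1*, the HFD difference in fasted mice differed between genotypes by -0.78 (adjusted p = 0.00643), and the fasting difference in LKO mice differed between diets by -0.71 (adjusted p = 0.00931).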

How the results depend on the processing

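The 8 fasting rises of *Mt1* and *Mt2* and the lower *Nqo1* and *Srxn1* of fed LKO mice on HFD kept their direction and call in all 16 alternatives and all 12 fits that left out an array of the compared groups. No called difference reversed. The number of HFD calls, 1, became 2 with the processed signal scaled to the 75th percentile, normexp, median scaling, no filter, probes above background on all arrays, no washing batch correction, the median over probes or washing batch 2 only, 3 without array weights and 5 in washing batch 1 only. The 4 interaction calls became 2 with the median over probes, 0 in washing batch 1 only and 1 in washing batch 2 only. The 2 genotype calls became 4 with the compared groups only. By adjusted p alone, the fasting, HFD and genotype calls were 17, 8 and 12 of 36 tests each, against 31.2%, 15.8% and 29% over all genes. The 7 correlated pairs became 4 with the 75th percentile scaling, 4 with the slide removed and 5 with no washing batch correction. The cause of these shifts was not tested, except that a single washing batch holds fewer arrays and a dropped threshold admits more genes. With 1 array left out, the counts were 9 to 10 for fasting, 0 to 4 for HFD, 2 to 4 for genotype and 3 to 4 for interactions. With the 2 arrays nearest another group's mean left out, an alternative chosen after seeing the data, they were 9, 1, 3 and 3.

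With the replicate block, the calls were 10, 1, 2 and 3 for fasting, HFD, genotype and interactions. The one lost was the diet by fasting interaction of *Nfe2l2* in LWT mice, at -0.57 (limma adjusted p = 0.0106). Over 168 pairs of same-numbered mice from different groups, the correlation of their deviations from the group means ran from -0.34 to 0.32. The median was 0.014. Mice with different numbers were not compared, so whether the numbers pair the mice is not settled. That interaction of *Nfe2l2* fell under a threshold in 8 of 16 alternatives and 8 of 24 fits with an array left out, and the *Hmox1* fall in LKO mice on HFD in 5 of 16 and 6 of 12. With the median over probes, the *Nfe2l2* fall in LWT mice on HFD was -0.47.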
